A study of Mus musculus with 12 samples.

Results

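Chromatin acetylated in non-CINs was set against chromatin trimethylated in CINs, to list candidate sites that carried an active mark in the first population and a repressive mark in the second. In each list, neighbouring peaks with a gap of at most 500 bp were joined, and the stretches shared by both H3K27ac lists of non-CINs were kept, which gave 34953 stretches over 38.7 Mb with a median length of 835 bp. Of these, 528 stretches (1.51%) overlapped an H3K27me3 peak by at least 1 bp in both CIN lists, 676 (1.93%) did so in 1 CIN list and 33749 in neither. The choice used the 2 non-CIN H3K27ac lists and the 2 CIN H3K27me3 lists. The 2 H3K27me3 lists of non-CINs and the 2 H3K27ac lists of CINs took no part in it and served as the other readouts.

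The cells were sorted from the neocortex of *Gad67-GFP* heterozygote pups at postnatal day 2, from a mixed strain crossed out to CD-1 mice. The tissue of several litters was pooled for a sample, and neither population was treated. CINs (cortical interneurons) were the GFP+ cells, since the *Gad67* locus (*Gad1*) makes the GABA-synthesizing enzyme, and non-CINs were all GFP- cells, a mixture enriched for glutamatergic projection neurons and glia. Native ChIP, in which chromatin is digested with MNase and not cross-linked, was performed in 2 replicates for each mark and population. In such mixtures, fewer cells of a type that carry a mark and less of the mark per cell cannot be told apart.

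H3K27ac marks active promoters and enhancers. H3K27me3 is placed by Polycomb repressive complex 2 and lies over silent genes, above all over the CpG-rich promoters of developmental regulators in the lineages where they are off. Both marks sit on the same lysine, so a single histone tail cannot carry them together, and peaks of both at a site come from different tails, which may lie in neighbouring nucleosomes, on different alleles or in different cells.

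The 8 lists held 36662 to 62505 peaks over 34.5 to 56.3 Mb, and the read depth behind them was not used here. Of 23 interneuron genes, 11 had H3K27ac in non-CINs (112 stretches) and 20 in CINs (149 stretches). *Gad1*, *Gad2*, *Dlx1* and *Dlx6* were nearest to 0 stretches of non-CINs, and to 4, 2, 4 and 3 stretches shared by the CIN lists, whereas *Dlx2* had 5 and 7 and *Sox6*, *Nr2f1* and *Nr2f2* had 38, 20 and 13 stretches in non-CINs. Further, 26 of 28 pallial and projection neuron transcription factors and 21 of 22 genes of astrocytes and radial glia had H3K27ac in each population, with 249 and 204 stretches in non-CINs against 263 and 195 in CINs. *Neurod6* had 4 stretches in non-CINs and 6 in CINs, and *Aqp4*, the astrocyte water channel, had 8 in each. The part that other cells in the sort had in these peaks was not tested. The H3K27me3 lists of replicate 2 held 1931 (CIN) and 2215 (non-CIN) peaks on the X chromosome against 703 and 773 in replicate 1, but 14 of the 528 stretches lay there, and 513 stretches remained on the autosomes.

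Under the strictest reading of the marks, 4 stretches (0.0114% of all) had H3K27ac in both lists of non-CINs with none in either list of CINs, and H3K27me3 in both lists of CINs with none in either list of non-CINs. They were 4 (3.77%) of the 106 stretches with H3K27me3 in both CIN lists and neither non-CIN list. Over all stretches, 9.27% had no CIN H3K27ac, so its absence was not more frequent among the 106. The 4 lay at or nearest to *Epas1*, *Ccnd1*, *Lrmda* and *Id4*. The count depended on the settings, with 14 sites when peaks were joined only at a gap of 0 bp, 8 at −log10 *q* of at least 4 and 6 to 31 with a single list left out (30 without non-CIN H3K27ac list 2 and 31 without CIN H3K27me3 list 1). Of the 4, *Epas1* alone was found at the stricter *q*, and it was lost at a gap of 1000 bp. *Epas1* and *Ccnd1* were also lost without non-CIN H3K27ac list 2, and *Lrmda* without list 1. The bases covered by all 4 lists of the choice are printed here because these are the sites where every list fell the way an off-in-CIN site would. They come from the GRCm38 (mm10) reference, plus strand, at chr17:86753139-86753406, chr7:144937999-144938029, chr14:22738431-22738719 and chr13:48019122-48019381, and capitals mark the CpG dinucleotides.
Epas1: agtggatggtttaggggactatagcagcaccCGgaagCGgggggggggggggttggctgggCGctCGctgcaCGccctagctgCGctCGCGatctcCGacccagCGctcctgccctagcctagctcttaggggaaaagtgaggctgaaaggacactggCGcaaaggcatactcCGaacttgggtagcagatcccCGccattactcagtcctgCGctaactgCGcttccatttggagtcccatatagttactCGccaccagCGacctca
Ccnd1: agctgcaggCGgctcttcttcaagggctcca
Lrmda: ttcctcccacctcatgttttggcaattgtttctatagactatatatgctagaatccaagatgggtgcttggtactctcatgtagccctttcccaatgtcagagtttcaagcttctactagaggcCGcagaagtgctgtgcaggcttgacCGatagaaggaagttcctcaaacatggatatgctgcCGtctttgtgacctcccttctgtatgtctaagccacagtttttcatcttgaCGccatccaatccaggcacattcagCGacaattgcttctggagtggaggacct
Id4: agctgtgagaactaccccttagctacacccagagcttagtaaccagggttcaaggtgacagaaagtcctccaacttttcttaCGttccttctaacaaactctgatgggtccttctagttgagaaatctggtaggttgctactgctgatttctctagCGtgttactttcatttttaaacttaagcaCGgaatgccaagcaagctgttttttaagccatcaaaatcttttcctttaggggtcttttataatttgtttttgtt

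The *Epas1* run held 17 CpGs in 268 bases and was 60.8% G and C. The *Lrmda* run held 5 CpGs in 289 bases (46.7%) and the *Id4* run 3 in 260 (39.6%), while the *Ccnd1* run was 31 bases long with 1 CpG. Within the central 200 bp of the stretches, a window that reaches past the short *Ccnd1* run, TAATTA, the core of many homeodomain sites, occurred at 0 of the 4 sites. The E-box CAGATG, sought on either strand, also occurred at 0, and the palindromic E-box written CAGCTG at 1.

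*Epas1* encodes HIF-2 alpha, a transcription factor of the hypoxia response. Its stretch of 268 bp lay upstream of the gene, 427 bp from the transcription start site (TSS), and in the promoter. Strength is given as a percentile, the rank of a peak's fold enrichment within its own list from 0 to 100, taking the strongest peak over the stretch. H3K27ac stood at percentiles 66.25 and 51.2 in non-CINs, and the nearest CIN peaks lay 18638 and 32046 bp away. H3K27me3 stood at 97.7 and 90.8 in the CIN lists, in merged domains of 8100 and 7804 bp that ran across the stretch. Non-CINs had H3K27me3 on either side of it. Upstream it ended 205 bp away in replicate 1 and 20 bp away in replicate 2, and downstream it resumed 508 and 526 bp from the centre of the stretch, at percentiles 98.3 and 98.0. At *Epas1* the populations thus differed in a gap inside an H3K27me3 domain that both of them had.

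*Ccnd1*, the cyclin D1 gene that drives entry into the cell cycle, had its stretch in the second exon of the annotated transcript, within the coding part and 1855 bp from the TSS. H3K27ac of non-CINs stood at percentiles 20.2 and 49.0. CINs had H3K27ac 1354 and 1433 bp away, nearer to the TSS, so the promoter side of the gene was acetylated in both populations. H3K27me3 stood at 80.0 and 85.9 in merged domains of 5285 and 5603 bp in CINs, whereas the nearest non-CIN peak lay 32254 bp away in replicate 1 and 784 bp away in replicate 2, the latter 404 bp long and at percentile 5.91. The acetylated overlap at *Ccnd1* was only 31 bp long.

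The other two sites lay far from any protein-coding TSS. The *Lrmda* stretch (289 bp) lay in an intron, 718727 bp from the nearest protein-coding TSS, with H3K27ac at 28.1 and 43.9 in non-CINs and H3K27me3 at 76.7 and 88.0 in CINs, where the domains measured 5826 and 10211 bp. A CIN H3K27ac peak of replicate 1 came within 91 bp of it. The *Id4* stretch (305 bp) lay 241999 bp from the TSS of *Id4*, which encodes an inhibitor of basic helix-loop-helix factors, and its centre fell in the promoter of the non-coding gene 4931429P17Rik, 621 bp from that TSS. H3K27ac stood at 23.6 and 5.86 there and H3K27me3 at 8.06 and 36.7, the lowest H3K27me3 values of the 4 sites in each CIN list. H3K27ac at the 4 sites thus did not exceed percentile 66.25 in any non-CIN list.

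**Figure D1:**
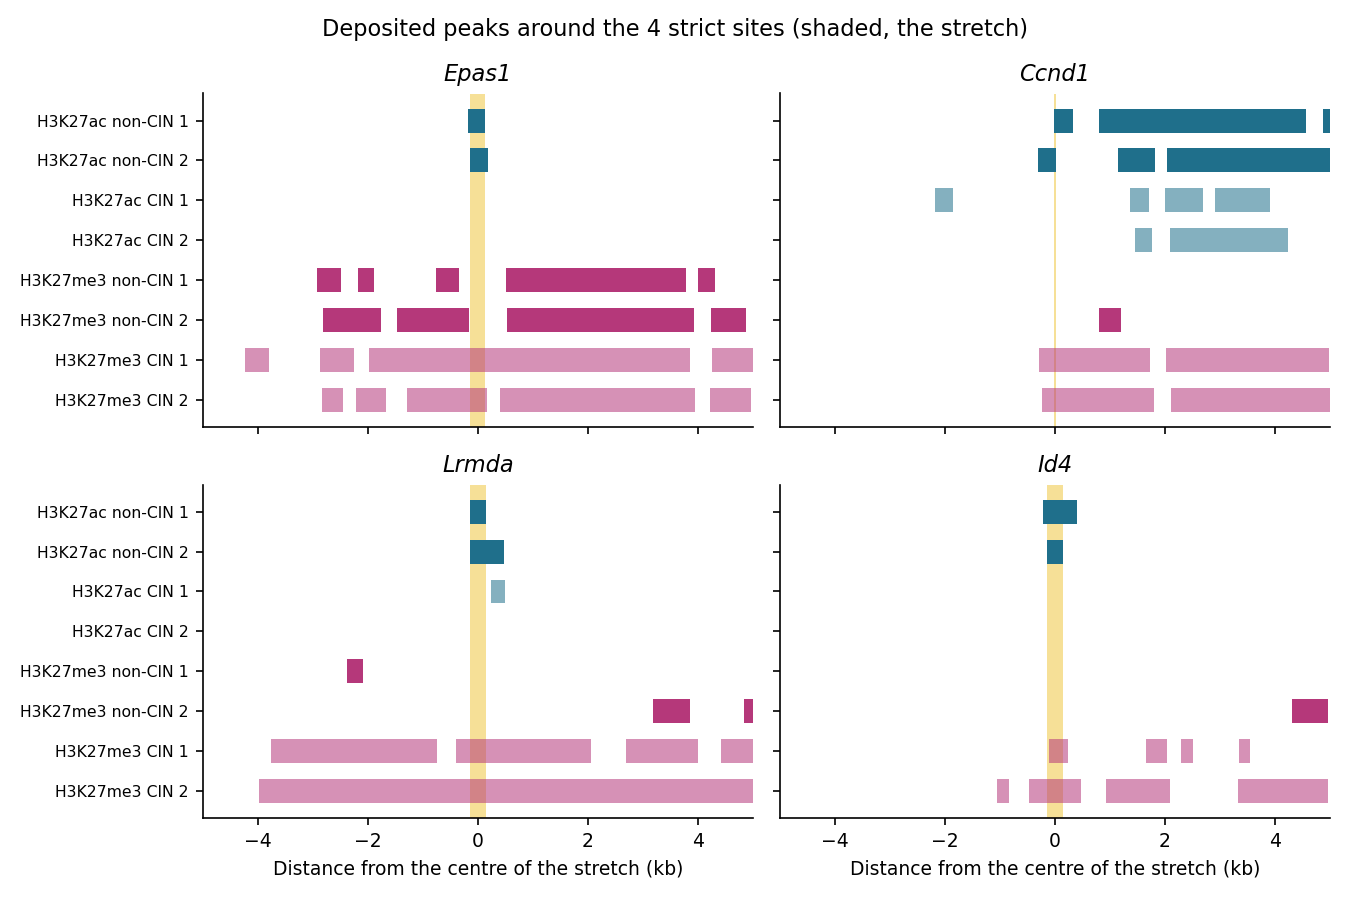
Deposited peaks (bars) in the 8 lists within 5 kb of the centre of each of the 4 strict sites, by distance from the centre in kb; teal is H3K27ac, pink is H3K27me3, full colour is non-CIN, pale is CIN and the shaded band is the stretch. At *Epas1* the non-CIN H3K27me3 bars stop 205 and 20 bp short of the band, and at *Ccnd1* the nearest CIN H3K27ac bars start 1354 and 1433 bp from it.

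Counted list by list, H3K27me3 of CINs met 666 stretches (1.91%) in replicate 1 and 1066 (3.05%) in replicate 2, and H3K27me3 of non-CINs met 686 (1.96%) and 795 (2.27%). The mean share was 2.48% ± 0.809 (SD, n = 2) with CIN H3K27me3 and 2.12% ± 0.221 (SD, n = 2) with that of non-CINs. The difference of 0.359 percentage points was smaller than the spread between the CIN lists (two-sided exact permutation test over the 4 lists, p = 1, and the smallest p that this design allows is 0.333). The difference was -0.0572 points within replicate 1 and 0.775 points within replicate 2, and without CIN list 2 it turned to -0.213. A difference between the populations in the share of acetylated stretches with H3K27me3 was therefore not detectable with these lists.

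Most of the overlap was common to the populations. Of the 528 stretches, 299 (56.6%) also had H3K27me3 in both non-CIN lists, 123 (23.3%) had it in 1, and 106 (20.1%) had it in neither. These 106 stretches (0.303% of all) are called CIN-only in the following. The reverse class, with H3K27me3 in both lists of non-CINs and in no list of CINs, held 27 stretches (0.0772%). Within replicate 1 alone, 283 stretches had H3K27me3 in the CIN list only and 303 in the non-CIN list only, against 441 and 170 within replicate 2, so CIN-only stretches outnumbered the others in replicate 2 and not in replicate 1. Without non-CIN list 1 the counts were 149 CIN-only and 158 reverse, and without non-CIN list 2 they were 186 and 180. Without CIN list 1 they were 369 and 35, and without CIN list 2 they were 199 and 121.

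**Figure D2:**
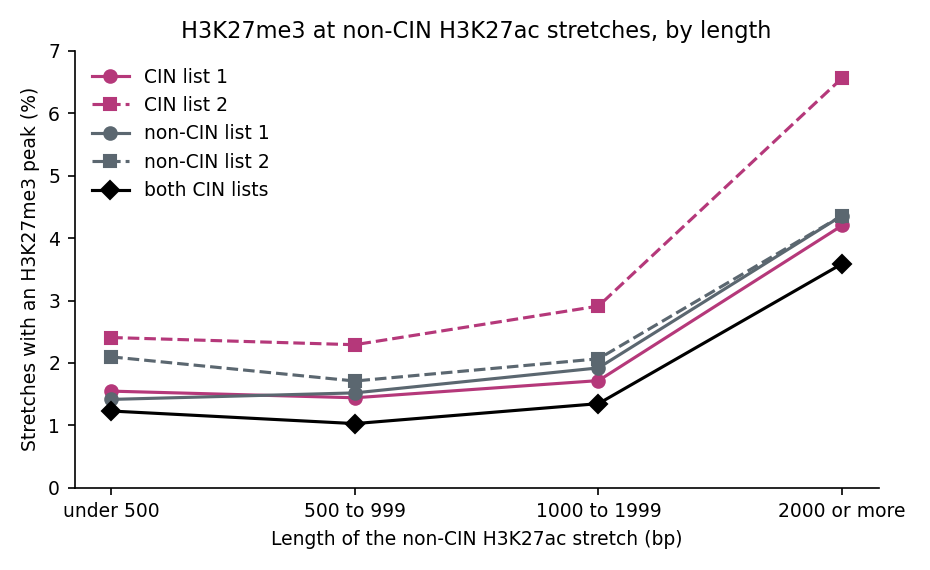
Share of non-CIN H3K27ac stretches with an H3K27me3 peak (y, percent) by the length of the stretch (x, bp), for each of the 4 H3K27me3 lists and for both CIN lists together (black). In stretches of 2000 bp or more the share with both CIN lists was 3.59%, against 1.23% under 500 bp, and CIN list 2 lay above the other lists at every length.

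H3K27ac was then compared between the populations. At each stretch with a peak in both of them, the percentile in CINs was subtracted from that in non-CINs for the same replicate. Because the non-CIN H3K27ac lists chose the stretches, each class is read against all stretches chosen in that way. Over all stretches the median difference was 1.27 points in replicate 1 and 1.45 in replicate 2, with non-CINs higher at 54.8% and 55.3%. At the CIN-only stretches it was 13.6 and 10.6 points, and non-CINs were higher at 83 of 100 and 69 of 87. At the reverse stretches it was -12.9 and -15.3 points, and non-CINs were higher at 4 of 26 in each replicate. At the 299 stretches with H3K27me3 in all 4 lists it was 3.30 and 2.07 points. The median H3K27ac percentile difference thus had opposite signs at CIN-only and reverse stretches, in both replicates. These are ranks within lists of 59667 and 62505 peaks in replicate 1 and 46040 and 46310 in replicate 2 (non-CIN and CIN), not levels of the mark.

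Over the 85 CIN-only stretches with a peak in all 4 H3K27ac lists, the median percentile was 77.2 and 73.5 in the non-CIN lists and 67.5 and 63.7 in the CIN lists. The mean difference was 9.80 points (non-CIN 75.4 ± 2.61, CIN 65.6 ± 2.69, SD, n = 2 each), and the populations did not overlap. Over the 26 reverse stretches the medians were 76.5 and 57.8 in non-CINs and 89.2 and 81.8 in CINs. Over all 27189 stretches with 4 peaks they were 74.9 and 68.0 against 74.6 and 66.7, a difference of 0.851 points that was smaller than the spread. The exact permutation test over the 4 lists gave p = 0.333 for each of the first 2 classes, the smallest it can give, and p = 0.667 for all stretches, so no call could be made. In both replicates, 56 of the 85 (65.9%) were higher in non-CINs and 5 (5.88%) higher in CINs, where the shares over all stretches were 37.0% and 28.7%. Both non-CIN percentiles lay above both CIN percentiles at 44 of the 85, against 26% of all stretches with 4 peaks.

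The difference was also seen where length and position were held. Among stretches of at least 1000 bp with a TSS within 1 kb, it was 12.3 points (47 stretches) and 11.8 points (44) at CIN-only stretches, 7.41 and 5.52 at those with H3K27me3 in all 4 lists, and 0.147 and -1.003 over all 6210 and 6198 stretches of that kind. On the autosomes it was 13.8 and 10.6 points at CIN-only stretches. Classes made from 1 replicate of H3K27me3 gave the same signs in each H3K27ac replicate. The 283 stretches marked in CIN list 1 only had differences of 7.44 and 5.62 points, against -1.42 and -3.04 at the 303 marked in non-CIN list 1 only, and the 441 and 170 stretches of replicate 2 had 9.95 and 8.85 against -8.60 and -12.2.

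**Figure D3:**
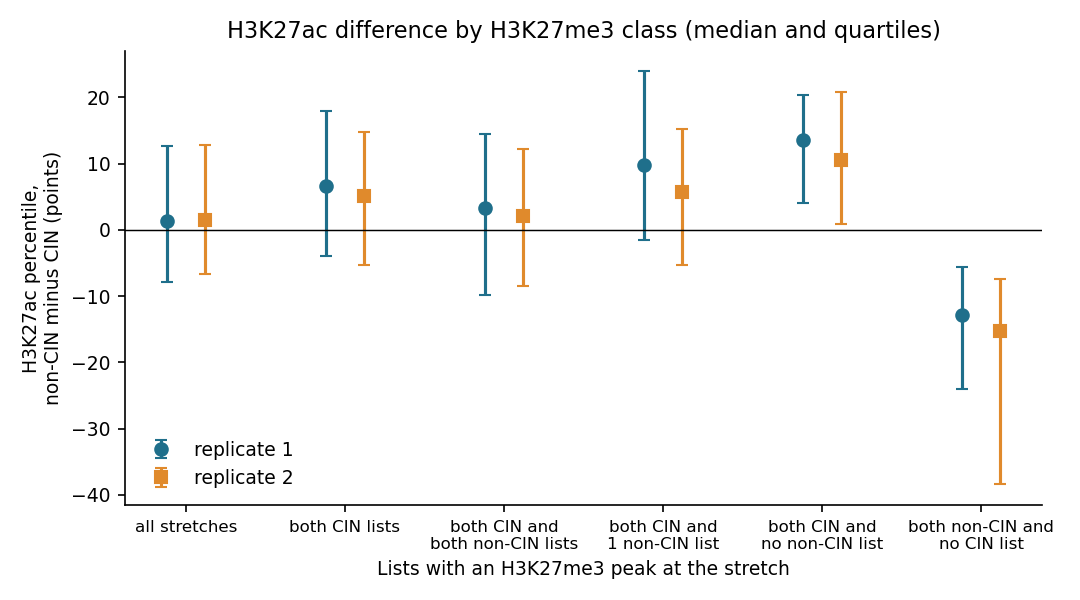
Difference in H3K27ac percentile, non-CIN minus CIN (y, points), by the lists with H3K27me3 at the stretch (x); markers are medians over stretches, bars are quartiles, and colours are the replicates. CIN-only stretches sit at 13.6 and 10.6, reverse stretches at -12.9 and -15.3, and all stretches at 1.27 and 1.45.

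The CIN-only stretches were named by the 30 with the highest lower percentile of CIN H3K27me3. Transcriptional regulators are given first. At *Olig1*, a basic helix-loop-helix factor of the oligodendrocyte lineage, a stretch of 5893 bp (chr16:91300707-91306599, 33881 bp from the TSS) had H3K27me3 at percentiles 96.0 and 80.2 in CINs, and H3K27ac at 89.9 and 95.5 in non-CINs against 78.3 and 86.5 in CINs. At *Gli3*, an effector of Hedgehog signalling, H3K27ac stood at 77.5 and 83.2 in non-CINs and 50.4 and 67.5 in CINs, with H3K27me3 at 59.9 and 82.8 over part of 6650 bp. At *Tcf7l2*, an effector of WNT signalling, the H3K27ac values were 86.7 and 83.3 against 81.9 and 64.8. In all 3 the non-CIN values lay above the CIN value of the same replicate.

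At *Rora*, an orphan nuclear receptor gene, H3K27me3 stood at 98.5 and 97.1, the highest lower percentile of the class, over 77 and 278 bp of a stretch of 370 bp, and H3K27ac stood at 65.1 and 49.7 in non-CINs, at 45.3 in CIN list 1 and at no peak in CIN list 2. *Dbx2*, a homeobox gene, had H3K27ac at 84.4 and 83.1 in non-CINs against 47.7 and 49.9 in CINs. *Etv4*, an ETS factor downstream of FGF signalling, had 91.9 and 91.0 against 82.9 and 90.4, a difference that was small in replicate 2. *Lmo1*, *Zfp503* and *Nfatc1*, which encode other transcriptional regulators, were also in this group, and *Lmo1* was mixed, with 48.1 and 46.8 in non-CINs against 45.1 and 53.4 in CINs.

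Genes of signalling proteins followed. *Spry4*, an inhibitor of receptor tyrosine kinase signalling, had a stretch of 3504 bp with H3K27me3 at 72.0 and 88.3 in CINs and H3K27ac at 96.0 and 89.7 in non-CINs against 84.0 and 75.2 in CINs. The promoter stretch of *Ptprm*, a receptor tyrosine phosphatase gene, had H3K27me3 at 91.1 and 93.8 and H3K27ac at 87.9 and 78.5 against 53.5 and 58.1. *Itpkb*, which encodes an inositol trisphosphate kinase, had H3K27ac at 67.0 and 60.65 against 37.5 and 38.2. The populations did not overlap at these 3 genes, which was so at 15 of the 24 named stretches with an H3K27ac peak in all 4 lists and at 26% of all stretches with 4 peaks.

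The matricellular protein genes *Ccn1* and *Ccn2* were both present. *Ccn1* had H3K27ac at 82.9 and 87.7 in non-CINs against 68.9 and 72.2 in CINs, and *Ccn2* had 48.7 and 37.0 against 48.3 and 5.20, with its whole promoter stretch of 419 bp covered by H3K27me3 in both CIN lists. *Sdc3*, a heparan sulfate proteoglycan gene, had 66.1 and 77.9 against 20.5 and 39.4. *Mt1*, a metallothionein gene, had 93.1 and 88.7 against 81.1 and 81.2, but its H3K27me3 was near the middle of the lists (59.0 and 56.3). *Pdlim5* was the exception among the 30, with H3K27ac of CINs (92.5 and 87.6) above that of non-CINs (88.4 and 83.5).

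Of these 30 stretches, 24 had an H3K27ac peak in all 4 lists. Non-CINs were higher in both replicates at 19, CINs at 1 and the replicates differed in sign at 4 (*Tmem63a*, *Etl4*, *Lmo1* and *Cldn10*), where over all stretches with 4 peaks non-CINs were higher in both replicates at 37.0% and CINs at 28.7%. The other 6 lacked H3K27ac in at least 1 CIN list, as did 21 of the 106 CIN-only stretches and 7755 of all 34953. A lack of CIN H3K27ac was thus no more frequent among the 30 than over all stretches. The rest of the 30 were *Slc35a3*, *Pxdc1*, *Pde3a*, *Gsg1l*, *Fbxo2*, *Tmem63a*, *Etl4*, *Zfp36l1*, *Gm9376* and *Cldn10* beside *Epas1*, *Ccnd1* and *Lrmda*. A TSS lay within 1 kb at 19 of the 30 and the centre fell in a promoter at 10.

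**Figure D4:**
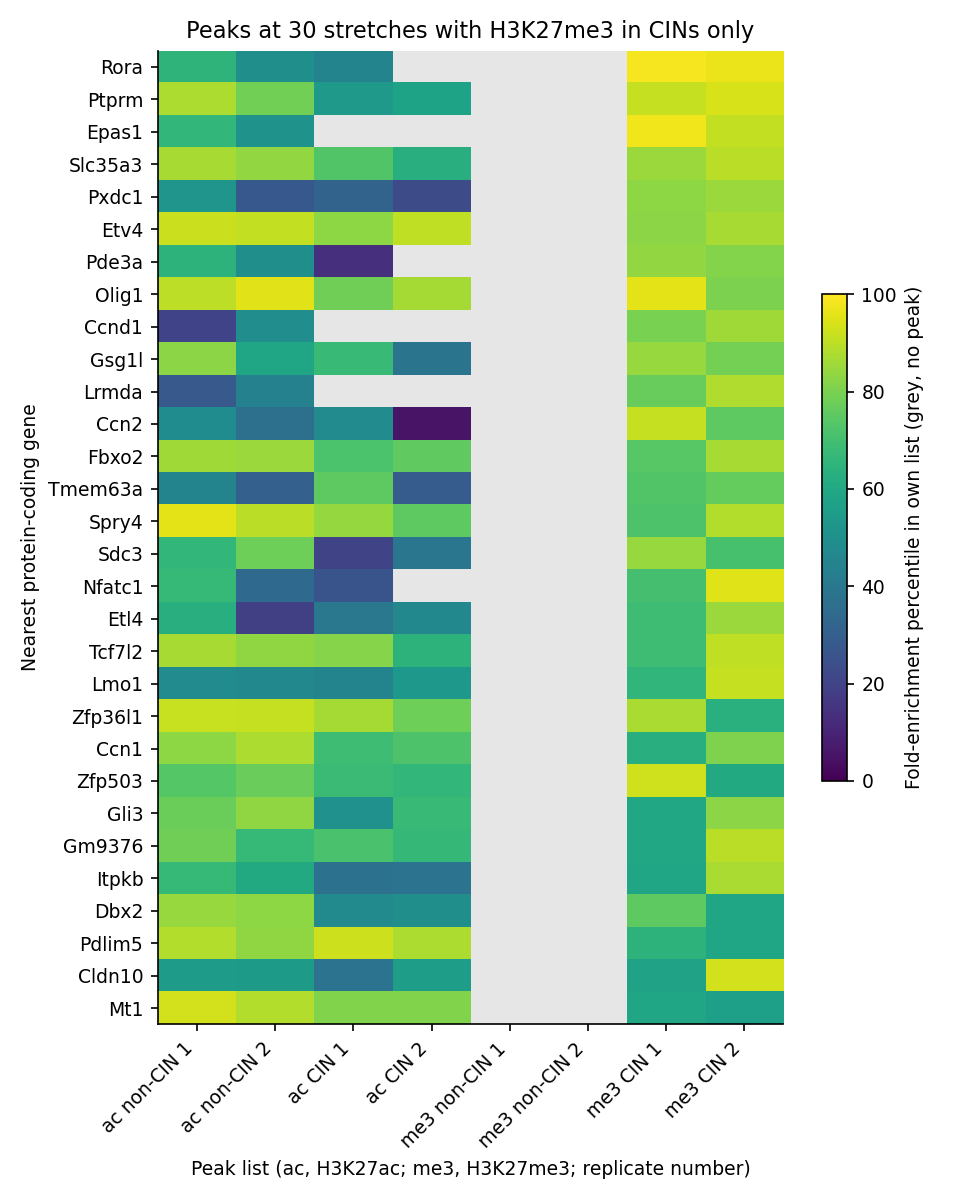
Fold-enrichment percentile within its own list (colour, 0 to 100; grey, no peak) in the 8 lists (x) at the 30 named CIN-only stretches (y, nearest protein-coding gene). The grey columns of non-CIN H3K27me3 are the condition that defines the class, and the non-CIN H3K27ac columns are above the CIN ones in both replicates at 19 of the 24 stretches with 4 peaks.

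Near misses were frequent in this class. The nearer non-CIN H3K27me3 peak lay at a median of 1356.5 bp, within 1 kb of 48 of the 106 stretches and within 100 bp of 13, as at *Epas1*. CIN H3K27me3 covered a median of 26.3% (list 1) and 38.7% (list 2) of a CIN-only stretch, in merged peaks with a median length of 707 and 1337 bp. At the 299 stretches with H3K27me3 in all 4 lists, the cover was 94.7% and 100% and the merged peaks were 3257 and 4449 bp long. In 9 of the 106 the overlap was under 50 bp in at least 1 CIN list, as at *Slc35a3*, with 7 bp in list 1. Just outside the threshold, 7 stretches without CIN H3K27me3 lay within 100 bp of a peak in both lists.

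The 27 reverse stretches were described for contrast, and their genes were chosen after their values were seen. *Myt1l*, a neuronal transcription factor gene, had H3K27ac at percentiles 61.3 and 66.3 in non-CINs and 98.8 and 98.1 in CINs, while H3K27me3 of non-CINs was uneven at 12.6 and 98.7. *Scrt2*, a neuronal transcriptional repressor gene, had H3K27ac at 49.3 and 27.75 against 92.8 and 85.1. *Lrrc7*, a postsynaptic scaffold gene, had 65.5 and 46.7 against 95.7 and 88.0. In both replicates CINs were higher at 19 of the 26 reverse stretches with a peak in all 4 lists (28.7% over all such stretches), and non-CINs at 1 (37.0%).

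H3K27ac of CINs was then read at the same stretches. Among the 528 stretches, 35 (6.63%) had no CIN H3K27ac peak, 68 (12.9%) had it in 1 CIN list and 425 (80.5%) in both, whereas 9.27% of all stretches had none. The count of 35 became 209 without non-CIN H3K27ac list 2 (of 1078 stretches), 59 without non-CIN H3K27ac list 1, 87 without CIN H3K27ac list 1, 73 without CIN H3K27me3 list 1 and 57 at a gap of 0 bp. Of the 35, non-CINs had H3K27me3 in both lists at 20, in 1 list at 11 and in neither at 4. The 20 included stretches at strong H3K27me3 domains that both populations shared. At *Nr2f2*, an orphan nuclear receptor gene of caudal interneurons, H3K27me3 stood at 99.5 and 99.5 in non-CINs and 99.3 and 99.6 in CINs over a stretch of 411 bp whose H3K27ac was weak (32.7 and 17.0). At *Fezf2*, a selector of subcortical projection neurons, a stretch of 477 bp had H3K27me3 between 95.5 and 96.8 in the 4 lists and H3K27ac at 24.0 and 37.4. These 2 were chosen after their values were seen.

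The strongest overlaps had H3K27me3 in both populations. By the lowest percentile over the 4 lists of the choice, taking 1 stretch per gene, the 10 named genes were *Esp38*, *Dmrta2*, *Pax6*, *Prdm16*, *Otx1*, *Rfx4*, *Lipg*, *Ccnd2*, *Nfatc1* and *Id3*. By the bases of CIN H3K27me3 they were *Otx1*, *Pax6*, *Olig2*, *Dmrta2* and *Sox21*. *Esp38* stands for a repeat-like site 102383 bp from its TSS, over an annotated ribosomal RNA locus, where all 8 lists were at percentile 96.7 or above.

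*Pax6*, the master regulator of cortical radial glia, had an acetylated stretch of 21324 bp (chr2:105669413-105690736). CIN H3K27me3 covered 10416 and 19431 bp of it at percentiles 96.4 and 97.2, and non-CIN H3K27me3 stood at 69.4 and 83.8. H3K27ac stood at 94.2 and 96.4 in non-CINs and 88.6 and 89.6 in CINs. At *Otx1*, a homeobox gene of the cortex, 10691 and 14507 bp of 15808 were covered at 90.9 and 93.9, with H3K27ac at 95.7 and 98.3 against 86.6 and 85.1. At *Olig2*, the partner of *Olig1*, 10024 and 10116 bp of 10116 were covered at 95.6 and 95.4, with H3K27ac at 89.2 and 92.0 against 69.1 and 76.0. At *Dmrta2*, a factor of the medial pallium, H3K27ac stood at 96.6 and 95.8 against 81.4 and 80.4. Non-CIN H3K27ac was higher in both replicates at these 4 genes, and the ranking by percentile itself favours stretches with strong non-CIN H3K27ac. This was so at 8 of the 10 stretches named by percentile, all 5 named by overlap and 37.0% of all stretches with 4 peaks. At *Esp38* CINs were higher in both replicates, and *Nfatc1* was mixed.

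Genes were read from the nearest protein-coding TSS. Of 12622 genes nearest to a stretch, 434 (3.44%) had a stretch with H3K27me3 in both CIN lists and 105 (0.832%) a CIN-only stretch. Most of the 434 (370) had a single such stretch, and 18 had 3 or more, led by *Nr2f2* with 7 of its 13 stretches, *Sox1* with 6 of 9, and *Fezf2*, *Nkx2-2*, *Nr2f1* and *Gm5089* with 4 each. All 7 at *Nr2f2* and all 6 at *Sox1* had H3K27me3 in both non-CIN lists too.

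The lists of cell type genes were counted in the same way, without a test between lists. Of the pallial and projection neuron transcription factors with non-CIN H3K27ac, 10 of 26 (38.5%) did, namely *Emx1*, *Emx2*, *Pax6*, *Fezf2*, *Cux2*, *Tle4*, *Lhx2*, *Pou3f3*, *Mef2c* and *Nfib*. None of the 3 stretches at *Neurod1*, the 4 at *Neurod6* or the 2 at *Tbr1* had CIN H3K27me3, and these genes make projection neuron factors. Of the oligodendrocyte genes, 5 of 15 (33.3%) did (*Olig1*, *Olig2*, *Sox10*, *Pdgfra* and *Nkx2-2*), and of the astrocyte and radial glia genes 4 of 21 (19.0%), namely *Hes1*, *Id4*, *Gja1* and *Sox2*.

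Of the interneuron genes with non-CIN H3K27ac, 8 of 11 (72.7%) had such a stretch, among them *Sox6*, *Maf*, *Nr2f1*, *Nr2f2*, *Sp8*, *Prox1* and *Erbb4*. That list held 23 genes, of which 12 had no non-CIN H3K27ac stretch, and 20 had H3K27ac in CINs. Over all genes listed, the counts were 8 of 23 for interneurons and 10 of 28 for the pallial list. WNT, BMP and FGF ligands had 2 of 11 (*Wnt7b* and *Bmp7*), endothelial and pericyte genes 1 of 12 (*Foxc1*), and microglial (5) and ribosomal protein (19) genes with H3K27ac had 0. Across the lists 30 of 120 genes had such a stretch, against 3.44% of all genes. A CIN-only stretch was found at 5 of the 120 (4.17%, against 0.832%), namely *Nfib*, *Id4*, *Gja1*, *Olig1* and *Maf*. These shares count genes, and the stretches per listed gene ran from 1, as at *Neurog2*, to 47 at *Nfia*. A gene with more stretches can meet H3K27me3 more often, and the number of stretches was not held equal. At *Gja1*, the gene of the astrocyte gap junction protein connexin 43, the promoter stretch of 2985 bp had H3K27me3 at 55.9 and 79.2 in CINs and H3K27ac at 93.65 and 90.6 in non-CINs against 62.7 and 79.3 in CINs, with no overlap. At *Maf*, a factor of interneurons of the medial ganglionic eminence, it had 57.3 and 61.7 against 42.5 and 49.0, with weak H3K27me3 (43.6 and 34.3). At *Nfib* a stretch of 22322 bp had 94.55 and 97.3 against 96.5 and 97.3, which did not separate the populations.

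Stretches with CIN H3K27me3 were longer, nearer to promoters and richer in CpG than those with none. Length and class are tied, because 1 bp of overlap sufficed and a longer stretch meets a peak more often. Nearness to a TSS was not particular to CINs, since the 27 reverse stretches had a median distance of 753 bp. The median length was 1214.5 bp with H3K27me3 in both CIN lists, 1054.5 bp in 1 list and 827 bp in none, and 1433.5 bp for CIN-only stretches. The share with both lists was 1.23%, 1.03%, 1.35% and 3.59% in stretches under 500, 500 to 1000, 1000 to 2000 and over 2000 bp. The median distance from the nearest TSS was 989 bp in both lists, 1713.5 bp in 1, 18960.5 bp in none and 699 bp for CIN-only stretches. A TSS lay within 1 kb of 264 of the 528 stretches in both lists, 63.2% of the CIN-only and 27.9% of those with no CIN H3K27me3. Stretches over 100 kb from a TSS made up 7.95%, 5.66% and 17.9%.

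**Figure D5:**
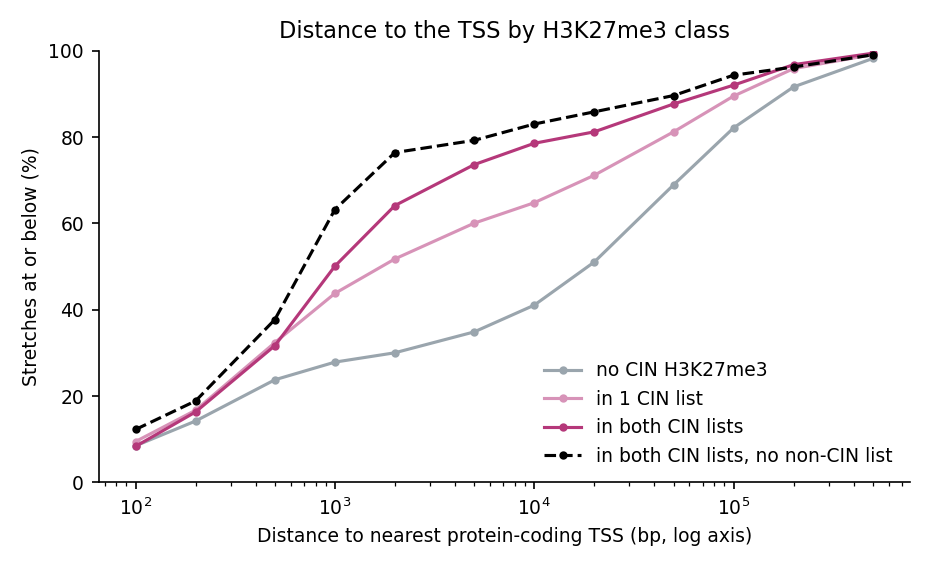
Cumulative share of stretches (y, percent) by distance from the nearest protein-coding TSS (x, bp, log axis) for 4 classes of CIN H3K27me3. Medians fall at 18960.5 bp with no CIN H3K27me3, 1713.5 bp in 1 list, 989 bp in both and 699 bp for CIN-only stretches.

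By the centre of the stretch, 28.2% of those in both CIN lists lay in a promoter (from 1 kb before a TSS to 100 bp after it), 14.8% in an exon, 43.4% in an intron and 13.6% between genes, against 18.04%, 7.88%, 52.7% and 21.4% with no CIN H3K27me3. Read the other way, H3K27me3 was present in both CIN lists at 2.32% of promoter, 2.77% of exon, 1.25% of intron and 0.973% of intergenic stretches. The CpG observed-to-expected ratio had a median of 0.580 in both lists, 0.620 at CIN-only stretches and 0.285 with none, and the GC content of 55.5%, 57.6% and 49.6%. At the 27 reverse stretches the medians were 0.535 and 57.1%. In the central 200 bp, read on both strands, TAATTA occurred in 3.23% of the 527 stretches with a reference sequence (4.15% of all stretches), CAGATG in 11.4% (12.7% of all) and CAGCTG in 11.8% (13.1% of all). Among the CIN-only stretches the shares were 2.83%, 6.60% and 11.3%.

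The mirror comparison asked the same of CIN acetylation. Of 35768 H3K27ac stretches of CINs, 766 (2.14%) had H3K27me3 in both non-CIN lists. Of all 35768, 72 (0.201%) had it in both lists of non-CINs and no list of CINs, and 104 (0.291%) had it in both lists of CINs and no list of non-CINs. From non-CIN acetylation the same H3K27me3 classes held 27 and 106 stretches. Both counts rest on the same 4 H3K27me3 lists, and without non-CIN list 1 the latter became 158 and 149.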

How the data were processed

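Each of the 8 ChIP samples had 1 list of broad peaks. Reads had been mapped to mm10 by the authors (BWA 0.7.15), who kept reads with a mapping quality of 30 or more with SAMtools and called peaks against matched input with MACS2 (2.2.7 in their processing notes, but another version in their methods), at a *q* cutoff of 0.01. The deposited columns are a score, a fold enrichment (a ratio of ChIP to input) and −log10 *p* and −log10 *q*, all computed by the authors' peak caller. None is a read count, so read depth was not used, and its precision cannot be stated. The score and −log10 *p* were not used further.

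Peaks 500 bp or less apart were merged. Fold enrichment was ranked within its own list. Genes came from the GENCODE vM21 basic annotation. The members and gene lists were chosen with earlier results of these data known. Named genes were the nearest to the 4 strict sites, the 30 CIN-only stretches with the highest lower H3K27me3 percentile, 10 stretches by lowest percentile over the 4 lists and 5 by overlap (each 1 per gene), and members of the gene lists. Regions are not replicates, so tests ran over lists only. With 2 replicates per group, p-values measure only the spread between these samples.

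Scripts ran in Python 3.11.15 (with pysam 0.24.0 for sequence, SciPy 1.17.1 and NumPy 2.4.6 for statistics), and plots were drawn with matplotlib 3.10.9. On the deposited lists, 12 of 12 interval operations equalled those of bedtools. On simulated lists, 11 of 11 class counts equalled the planted counts. Alternatives were merging gaps, overlap minima, −log10 *q* of at least 4, single lists left out, a replicate block and chromosomes.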

Additional observations from a re-analysis of the deposited data

How the results depend on the processing

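The count of 528 stretches fell to 258 when 50% of the stretch had to be covered and to 208 at −log10 *q* of at least 4. The 106 CIN-only stretches became 28 and 39 (the last against 16 reverse stretches). The 35 without CIN H3K27ac became 57 at a gap of 0 bp, where 632 stretches had H3K27me3 in both CIN lists, with a median length of 691.5 bp. The 4 strict sites became 14 at a gap of 0 bp and 8 at −log10 *q* of at least 4, where *Epas1* alone of the 4 was found. At a gap of 1000 bp *Epas1* was lost. Leaving out 1 list gave 633 to 1078 stretches (1078 without non-CIN H3K27ac list 2, 1066 without CIN H3K27me3 list 1), 121 to 369 CIN-only (369 and 199 without CIN H3K27me3 lists 1 and 2, 186 without non-CIN H3K27me3 list 2), 41 to 209 without CIN H3K27ac (59 and 209 without non-CIN H3K27ac lists 1 and 2, 87 without CIN H3K27ac list 1, 73 without CIN H3K27me3 list 1) and 6 to 31 strict sites (10 and 30 without non-CIN H3K27ac lists 1 and 2, 31 and 10 without CIN H3K27me3 lists 1 and 2, 7 and 12 without non-CIN H3K27me3 lists 1 and 2, 19 without CIN H3K27ac list 1). Fewer lists make each condition easier to meet. Without CIN H3K27me3 list 2 or 1, the only lists left out for these values, the median length was 1123 and 1137.5 bp and the TSS distance 814 and 1492 bp. The difference in share ran from -0.213 to 0.931 points. Same-numbered H3K27me3 lists deviated together only weakly (Pearson r = 0.208 across 1515 stretches, which are not independent replicates), and the labels tie them by number alone. With a replicate block the counts were 585, 105, 29 and 3, and the share differed by -0.0572 points within replicate 1 and 0.775 within replicate 2. With numbers crossed between the marks, chosen after seeing the data, there were 105 CIN-only stretches. The H3K27ac difference at CIN-only stretches (mean 12.1 points, SD 2.14 between replicates) was 10.9 to 12.2 under the 4 settings tried after seeing the data. The gene lists gave 27, 28 and 45 genes in place of 30. CIN-only stretches outnumbered reverse stretches in 15 of 16 settings, the exception being without non-CIN H3K27me3 list 1 (149 against 158). Without non-CIN H3K27me3 list 2 the counts were nearly equal (186 against 180). The settings reuse the same 4 H3K27me3 lists and are not independent. Replicate 1 alone, which was not among them, had 283 stretches in the CIN list only and 303 in the non-CIN list only. The causes were not tested. Absence of a peak means only that none was listed.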
